A study of Homo sapiens with 4 samples.

Results

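The 10 genes described here encode the kinases and mediators of the DNA damage checkpoint: ATM, ATR, CHEK1, CHEK2, WEE1, TOPBP1, MDC1, TP53BP1, PARP1 and the histone gene H2AFX, whose current symbol is H2AX. They were taken by name from the table of read counts, which lists 36359 genes, and all 10 were found and had enough reads to be tested. The RNA came from ACHN, a long-established cell line of human renal cell carcinoma, sequenced after lipid transfection of a control siRNA (siNC, 2 libraries) or of siRNA against PRR11 (siPRR11, 2 libraries). All libraries came from the same line in the same medium, and the labels state neither which siPRR11 duplex a library received nor the time of harvest. The labels do not say that the libraries of a group came from separate cultures, and the study's methods speak of independent repeats of experiments in general, without naming the RNA-seq. The p-values thus measure the spread between these libraries, which may be technical. The study blotted phosphorylated CHK2, γ-H2AX and cleaved PARP and reported higher levels of each in silenced cells. It also reported more γH2AX foci and more DNA in the tails of comet assays after silencing. The blotted proteins are forms of the CHEK2, H2AFX and PARP1 proteins made after translation, whereas the counts measure the mRNA of these genes.

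The checkpoint is a relay of protein kinases. ATM is activated at double-strand breaks and ATR at stretches of single-stranded DNA, where TOPBP1 switches ATR on. ATM phosphorylates the tail of H2AX beside the break, MDC1 binds that mark, and TP53BP1 is then brought to the surrounding chromatin. CHK2, the product of CHEK2, carries the signal from ATM, and CHK1, the product of CHEK1, carries it from ATR. Both restrain the CDC25 phosphatases, which activate cyclin-dependent kinases. WEE1 is the kinase that opposes CDC25 by placing the inhibitory phosphate on CDK1. PARP1 detects nicks and builds poly-ADP-ribose chains at them, and it is cut by caspases during apoptosis. Much of this regulation acts on proteins that are already present.

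Counted reads per library ranged from 59003839 to 92612749. PRR11, the targeted gene, was at 41.2 and 40.3 CPM (counts per library size after edgeR's TMM scaling) in siNC and at 15.3 and 14.01 CPM in siPRR11, so 35.9% of the control level remained. Of the 7 renal epithelial markers 6 were tested, and their summed level was 1936 to 2316 CPM in siNC and 2152 to 2331 CPM in siPRR11, with PAX8 between 253 and 375 CPM over the libraries and KRT8, a keratin, at 1169 CPM or more in each. The renal cadherin CDH6 was at 0.0636 CPM at most. The markers of other cell types that a culture could hold were near 0. Over the 5 leukocyte markers, the summed level was 1.14 to 1.71 CPM in siNC and 1.02 to 1.46 CPM in siPRR11, and PTPRC, which defines leukocytes, did not exceed 0.069 CPM. The sums were 0.293 to 0.294 and 0.551 to 0.655 CPM for the 4 endothelial markers, and 1.10 to 1.25 and 0.666 to 1.12 CPM for the 4 fibroblast markers.

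In control cells the 10 mRNAs covered a 48.2-fold range of levels per length. Levels of different genes are compared as RPKM, the counts divided by exonic length and by the library's total, as the authors deposited them. PARP1 stood highest at 69.0 ± 0.774 RPKM (SD, n = 2), above 96.9% of the genes tested. H2AFX followed at 19.9 ± 1.51 RPKM (SD, n = 2). The break mediators MDC1 and TP53BP1 were at 16.5 ± 0.612 and 16.5 ± 0.448 RPKM (SD, n = 2 each), and their libraries overlapped. TOPBP1 was at 7.72 ± 0.832 RPKM (SD, n = 2). The kinases were lower. CHEK1 was at 4.97 ± 0.345, CHEK2 at 3.14 ± 0.242, ATR at 2.20 ± 0.0312 and ATM at 1.85 ± 0.157 RPKM (SD, n = 2 each). WEE1 was lowest at 1.43 ± 0.0286 RPKM (SD, n = 2), above 42.3% of the genes tested. Apart from MDC1 and TP53BP1, no neighbours in this order overlapped in siNC. The exonic length pools all annotated isoforms and reaches 22317 bases for ATM, so RPKM understates genes with many rarely used exons. The order was the same in siPRR11, except that TP53BP1, at 18.8 RPKM, and MDC1, at 18.5 RPKM, changed places within their overlap.

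**Figure D1:**
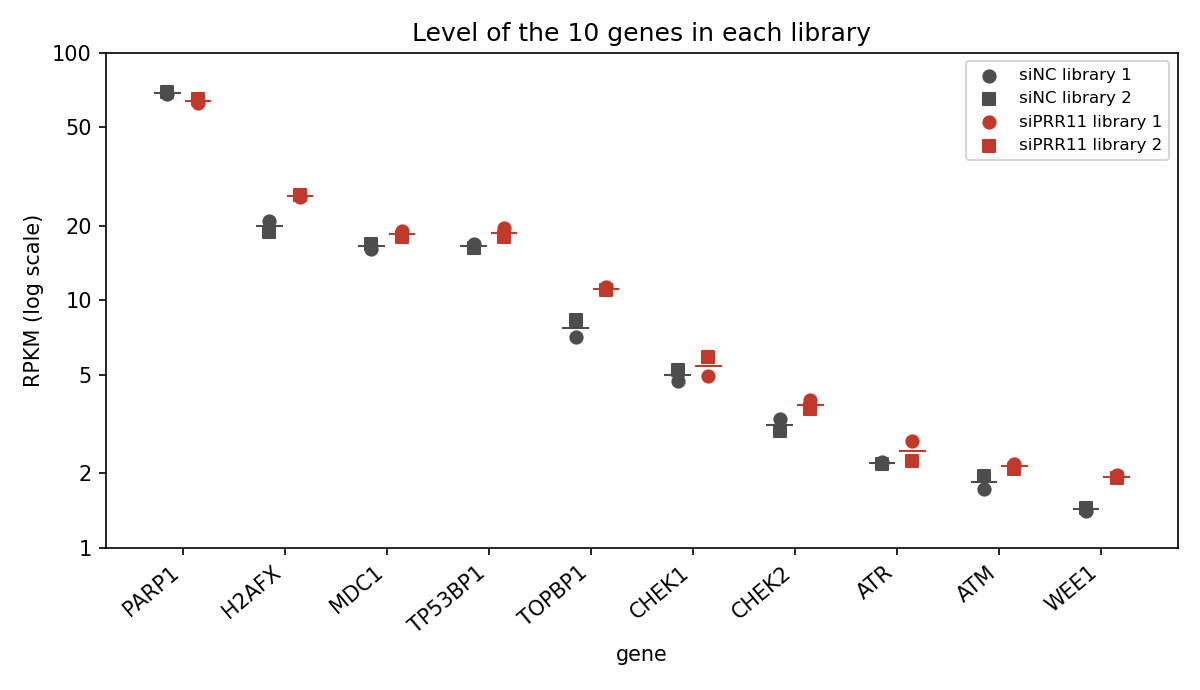
RPKM (log scale) of the 10 checkpoint genes in each library, ordered by the siNC mean. Circles and squares are libraries 1 and 2 of a group and short bars the group means. The siNC means run from 69.0 RPKM for PARP1 to 1.43 RPKM for WEE1, and the shifts between the groups are small beside the distances between most genes.

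To ask whether silencing PRR11 changed the expression of the checkpoint machinery, siPRR11 was compared with siNC for each gene. TOPBP1, WEE1 and H2AFX were higher in siPRR11 cells, at 139.8%, 131.2% and 127.9% of their control levels, and no gene of the 10 was called lower. The test was edgeR's quasi-likelihood test, with p-values adjusted by the Benjamini-Hochberg method over all 21630 genes tested. Of all genes tested, 7.61% were called higher and 9.14% lower at an adjusted p-value under 0.05, beside 3 and 0 of the 10. At an unadjusted p-value under 0.05, edgeR counted 3 of the 10 higher and 1 lower (PARP1), without a share over all genes beside them. DESeq2 called 3 higher and 0 lower, with 0 lower at an unadjusted p-value under 0.05 as well. Limma on log2(RPKM + 1) called 2 higher and 0 lower. In either direction, DESeq2 called 20.3% of all genes and limma 8.21%. Log2 fold changes were positive for 9 genes and negative for PARP1, with a median of 0.15 beside 0.0022 over all genes tested. In 8 of the 10 genes the libraries of the groups did not overlap, 7 with siPRR11 above and 1 below, and 58.4% of all genes tested showed such a separation, 29.1% with siPRR11 above and 29.3% below.

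**Figure D2:**
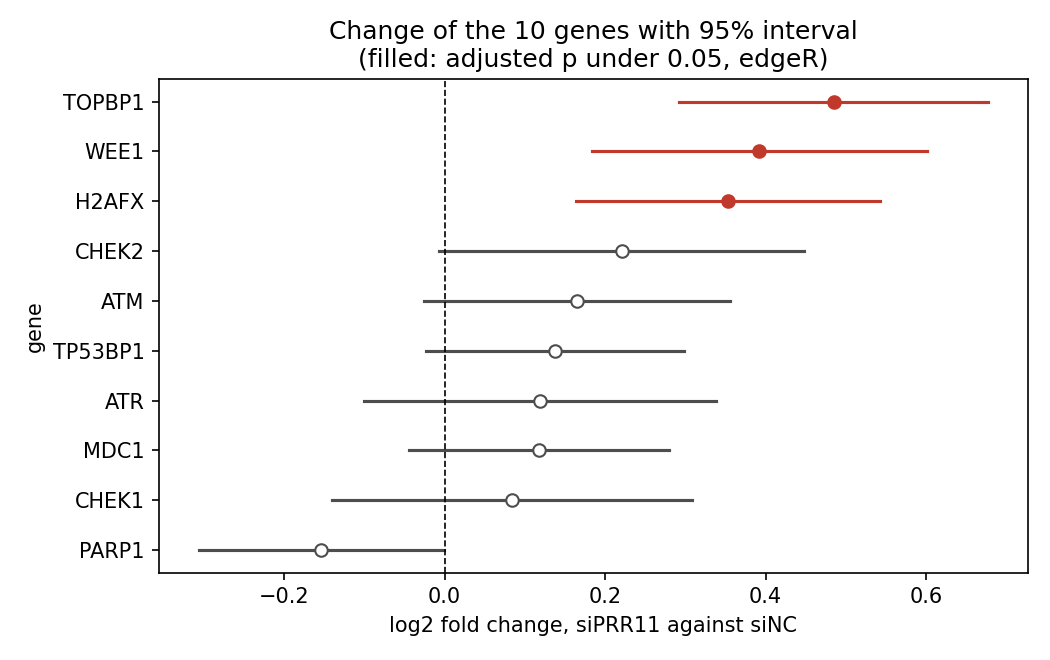
Log2 fold change of each gene, siPRR11 against siNC, with its 95% interval from edgeR. Filled red points have an adjusted p-value under 0.05. The intervals of TOPBP1, WEE1 and H2AFX lie wholly above 0, that of PARP1 ends just under it, and those of the other 6 genes cross it.

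Promoters are shown because cell cycle genes are known to share short motifs near their start. The sequences, 300 bases from 250 before each RefSeq start on GRCh38.p14, were available for 9 of the 10 genes, without WEE1. They were searched on both strands for the E2F site (TTTGGCGC, TTTCCCGC, TTTGCCGC or TTTCGCGC), for the cell cycle homology region CHR (TTTGAA) and for the CCAAT box (CCAAT). An E2F site was found in 1 of the 9 genes, TOPBP1, and 3.31% of 35116 promoters of this length hold one. CHR letters were found in 3 genes (ATM, H2AFX and MDC1) and in 15.2% of all promoters. CCAAT letters were found in 6 genes and in 34.6% of all promoters. Several starts are listed for ATM and CHEK1, so these genes had more windows. The windows that follow run 5′ to 3′ on the strand of the gene, with the motif letters in capitals. They show H2AFX and TOPBP1, which had a call, beside ATM, MDC1 and CHEK2, which had none and hold CHR or CCAAT letters. E2F letters were found neither in H2AFX nor in the genes without a call, and a relation between motifs and changes was not tested.
H2AFX, chr11:119095607-119095636, minus strand, CHR (reverse complement) and CCAAT: aaaggttTTCAAAttcgaCCAATcagcggg
TOPBP1, chr3:133661931-133661958, minus strand, E2F (reverse complement): cgcgcggttgGCGCGAAAgtcggttccc
ATM, chr11:108223037-108223062, plus strand, CHR: tcacgcagggTTTGAAccggaagcgg
MDC1, chr6:30717396-30717421, minus strand, CHR: acaccacctaTTTGAActctaagggg
CHEK2, chr22:28741876-28741900, minus strand, CCAAT (reverse complement): gctgctcctcATTGGtccggcggca
CHR and CCAAT letters stood together in the 300-base window of 3 of the 9 genes, H2AFX, which had a call, and ATM and MDC1, which had none, and 5.9% of all promoters hold both. In H2AFX both fall within the 30 bases printed. A match of letters is a description of the sequence and does not show that a factor binds there.

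TOPBP1, the activator of ATR, changed most of the 10. It is the gene with the E2F letters shown, and it occupies the minus strand of chromosome 3 between 133598175 and 133661893 (GRCh38). Its level was 47.2 and 55.1 CPM in the siNC libraries and 72.4 and 70.6 CPM in the siPRR11 libraries. Both siPRR11 libraries lay above both siNC libraries, and the gap between the groups was wider than the spread within siNC. The log2 fold change was 0.48 (standard error 0.0881, 95% interval 0.29 to 0.68, edgeR adjusted p = 0.00323). TOPBP1 stayed past the threshold whichever single library was left out, with log2 fold changes between 0.37 and 0.59.

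WEE1, on chromosome 11 between 9573681 and 9593457 on the plus strand of GRCh38, had the lowest level per length of the 10. It was at 13.3 and 13.7 CPM in siNC and at 17.9 and 17.4 CPM in siPRR11, without overlap. On the log2 scale WEE1 differed by 0.39 (standard error 0.0955, 95% interval 0.18 to 0.60, edgeR adjusted p = 0.0157). The call was lost when either siPRR11 library was left out, with adjusted p-values of 0.134 without library 1 and 0.0672 without library 2, while the log2 fold change stayed between 0.37 and 0.41. With limma on log2(RPKM + 1) WEE1 had an adjusted p of 0.0932.

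H2AFX, on chromosome 11 between 119093854 and 119095467 on the minus strand, encodes the histone whose phosphorylated form is read as γ-H2AX. Its counts give the total H2AFX mRNA and carry no information on phosphorylation. The levels were 34.5 and 31.0 CPM in siNC and 41.4 and 42.2 CPM in siPRR11, again without overlap. H2AFX differed by 0.35 on the log2 scale (standard error 0.0867, 95% interval 0.16 to 0.54, edgeR adjusted p = 0.0163). The difference was 0.37 without siPRR11 library 1 and 0.34 without library 2, with adjusted p-values of 0.069 and 0.102, so this call also rested on both silenced libraries. The promoter printed for H2AFX holds CHR and CCAAT letters, and both also stand in the promoters of ATM and MDC1, genes without a call. CCAAT letters stand as well in those of CHEK1, CHEK2 and TP53BP1, which had no call either. The log2 fold change of H2AFX was 0.43 without siNC library 1 and 0.28 without siNC library 2. H2AFZ, which encodes the variant H2A.Z, rose from 90.0 and 81.0 CPM to 129.7 and 126 CPM, with a log2 fold change of 0.58 (edgeR adjusted p = 0.000558). H2AFV, which encodes a second form of H2A.Z, rose from 134 and 131 CPM to 179 and 184 CPM, with a log2 fold change of 0.45 (edgeR adjusted p = 0.00137). H2AFJ, chosen after its values were seen, had a log2 fold change of 0.35 (edgeR adjusted p = 0.0475). Of the 5 other H2A variants tested, these 3 were called higher and none lower by edgeR's test, beside 7.61% and 9.14% of all genes. DESeq2 also called 3 higher and 0 lower, beside 20.3% of all genes in either direction. At an unadjusted p-value under 0.05, edgeR counted 4 higher and 0 lower, without a share over all genes beside them.

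None of the 4 signalling kinases ATM, ATR, CHEK1 and CHEK2 passed the threshold. CHEK2, on chromosome 22 between 28687743 and 28742422, came closest, with 13.9 and 12.5 CPM in siNC and 16.1 and 14.8 CPM in siPRR11. The groups did not overlap, but the gap between the nearest libraries was smaller than the spread within either group. Its log2 fold change of 0.22 had a 95% interval from -0.0074 to 0.45 (edgeR adjusted p = 0.179). ATM, on chromosome 11 between 108222484 and 108369102, was at 39.3 and 44.4 CPM in siNC and at 47.9 and 45.9 CPM in siPRR11. The change for ATM on the log2 scale was 0.16 (95% interval -0.025 to 0.36, edgeR adjusted p = 0.23). The siNC libraries differed from each other by more than siNC library 2 differed from either siPRR11 library.

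For ATR, on chromosome 3 between 142449235 and 142578826, the levels were 28.2 and 27.7 CPM in siNC and 33.1 and 27.5 CPM in siPRR11. The groups overlapped, and siPRR11 library 1 alone stood high. The log2 fold change of 0.12 (95% interval -0.10 to 0.34, edgeR adjusted p = 0.472) became -0.018 without that library. CHEK1, on chromosome 11 between 125625136 and 125676255, was at 31.5 and 34.8 CPM in siNC and at 31.9 and 38.3 CPM in siPRR11. Here siPRR11 library 2 alone stood high, and the groups overlapped. Its log2 fold change of 0.084 (95% interval -0.14 to 0.31, edgeR adjusted p = 0.637) became -0.054 without that library. The 95% intervals of the 4 kinases ended between 0.31 (CHEK1) and 0.45 (CHEK2), so rises up to these sizes could not be told from no change in this fit. With the replicate number as a block, CHEK2 alone of the 4 passed the threshold (edgeR adjusted p = 0.0359).

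Neither of the break mediators MDC1 and TP53BP1 passed the threshold. MDC1, on chromosome 6 between 30699807 and 30717889, was at 132 and 139 CPM in siNC and at 151 and 143 CPM in siPRR11. Its log2 fold change was 0.12 (95% interval -0.044 to 0.28, edgeR adjusted p = 0.317). TP53BP1, on chromosome 15 between 43403061 and 43510728, was at 222 and 214 CPM in siNC and at 249 and 231 CPM in siPRR11, with a log2 fold change of 0.14 (95% interval -0.023 to 0.30, edgeR adjusted p = 0.236). The siPRR11 libraries lay above the siNC libraries for both genes, but the nearest libraries were closer to each other than the siPRR11 pair was.

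PARP1 was the one gene of the 10 with a negative log2 fold change. The gene occupies the minus strand of chromosome 1 between 226360691 and 226408079. The levels were 499 and 508 CPM in siNC and 442 and 462 CPM in siPRR11, and the groups did not overlap. The siPRR11 mean was 89.9% of the siNC mean. The log2 fold change was -0.15 (standard error 0.07, 95% interval -0.31 to -0.000897, unadjusted p = 0.0489, edgeR adjusted p = 0.162), so PARP1 was not called lower after adjustment. Cleavage of the protein by caspases leaves no trace in these counts.

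The other genes of the pathway were followed in 6 lists with 62 genes tested, of which 15 were called higher and 5 lower by edgeR's test, with a median log2 fold change of 0.14. These counts stand beside 7.61% higher and 9.14% lower over all genes tested, and the lists were chosen with earlier results of these data known. Among the partners of ATM and DNA-PK (8 genes), 1 was called higher and 1 lower. PRKDC, the catalytic subunit of DNA-PK, rose by 0.24 (edgeR adjusted p = 0.0394). NBN, the subunit of the MRE11-RAD50-NBN complex that recruits ATM to breaks, fell from 84.9 and 85.1 CPM to 63.4 and 56.1 CPM, a log2 fold change of -0.51 (edgeR adjusted p = 0.00164). RAD50 was at a log2 fold change of -0.17 and MRE11A at 0.23, neither past the threshold. The median of this list was -0.077.

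Among the genes of the ATR and CHK1 arm (13 genes), 2 were called higher and none lower, and the median log2 fold change was 0.18. The share called in either direction, 15.4%, was near the 16.7% of all genes tested, so this count is not a result about the arm. Both belong to the fork proteins that help ATR to activate CHK1. TIMELESS rose from 219 and 201 CPM to 339.9 and 318 CPM, a log2 fold change of 0.65 (edgeR adjusted p = 0.00025). CLSPN, which encodes the CHK1 adaptor claspin, rose by 0.34 (edgeR adjusted p = 0.00881). At an unadjusted p-value under 0.05, edgeR and DESeq2 each counted 6 of these 13 genes higher and 0 lower. No share over all genes is given beside these unadjusted counts, so they are not a result about the arm either. Limma on log2(RPKM + 1) called 3 of the 13 higher and 0 lower, beside 8.21% of all genes in either direction. TIPIN, the partner of TIMELESS, had a log2 fold change of 0.28 (edgeR adjusted p = 0.0818), and ATRIP, the partner of ATR, had one of 0.24 (edgeR adjusted p = 0.195). Neither was past the threshold.

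The mediators of break chromatin (15 of 16 genes tested) went both ways, with 1 called higher, 3 lower and a median log2 fold change of -0.038. Beside them, edgeR called 7.61% of all genes tested higher and 9.14% lower. BRCA1, a ubiquitin ligase of homologous recombination, rose by 0.48 (edgeR adjusted p = 0.00197). RNF8, the ubiquitin ligase that binds MDC1, fell from 48.7 and 43.4 CPM to 32 and 30.1 CPM, a log2 fold change of -0.57 (edgeR adjusted p = 0.00138). FAM35A, now named SHLD2, a shieldin subunit that acts with TP53BP1, fell by 0.30 on the log2 scale (edgeR adjusted p = 0.0315). PAXIP1, an adaptor recruited to breaks and chosen after its values were seen, was the third that fell, by 0.29 on the log2 scale (edgeR adjusted p = 0.0294). SHLD3 was not found in the table under that name.

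Another list held genes that the checkpoint kinases act on or that feed back on them. Of its 12 genes, 6 were called higher and none lower by edgeR's test, with a median log2 fold change of 0.34. The same test called 7.61% of all genes higher and 9.14% lower. At an unadjusted p-value under 0.05, edgeR counted 7 higher and 1 lower, without a share over all genes beside them. The 1 lower was PKMYT1, which encodes a kinase related to WEE1. DESeq2 called 6 higher and 1 lower, beside 20.3% of all genes in either direction. MDM2, which encodes a ubiquitin ligase, rose from 111 and 129 CPM to 193 and 181 CPM, a log2 fold change of 0.64 (edgeR adjusted p = 0.000508). CDC25C, the phosphatase that opposes WEE1 at CDK1, rose by 0.49 (edgeR adjusted p = 0.00912).

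Among the genes of poly-ADP-ribose metabolism (9 genes), 2 were called higher and 1 lower, with a median log2 fold change of -0.0088. The shares over all genes tested were 7.61% higher and 9.14% lower. XRCC1, the single-strand break scaffold that is drawn to poly-ADP-ribose, rose by 0.53 (edgeR adjusted p = 0.00219), and PARG, which removes the chains, rose by 0.39 (edgeR adjusted p = 0.00441). CHD1L, a chromatin remodeler activated by poly-ADP-ribose, fell from 147 and 139.9 CPM to 91.0 and 87.4 CPM, a log2 fold change of -0.69 (edgeR adjusted p = 0.000134).

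Several checkpoint genes are expressed mainly in cycling cells, so markers of the cell cycle are given beside them. Of 10 G1/S markers, 5 were called higher and 0 lower, and of 10 G2/M markers, 7 were called higher and 0 lower. Over all genes tested, edgeR called 7.61% higher and 9.14% lower. DESeq2 gave the same counts for both lists, and it called 20.3% of all genes in either direction. At an unadjusted p-value under 0.05 edgeR counted 5 and 10 higher and 0 lower, without a share over all genes beside them. The marker lists had median log2 fold changes of 0.28 and 0.34. The summed level of the G1/S markers was 723.6 and 735.6 CPM in siNC and 959.6 and 960.6 CPM in siPRR11, and that of the G2/M markers was 2498 to 2631 CPM in siNC and 3060 to 3347 CPM in siPRR11. RRM2, a subunit of ribonucleotide reductase, moved most among the first, by 1.18, and TOP2A, a topoisomerase, most among the second, by 0.63. In bulk RNA, more cells in a phase and more RNA per cell cannot be told apart, and the part of these markers in the rises of TOPBP1, WEE1 and H2AFX was not tested.

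Calls of the 10 genes were followed with each library left out. With either siNC library left out, TOPBP1, WEE1 and H2AFX were called, and with either siPRR11 library left out only TOPBP1 was called. Over all genes tested, 9.68% and 10.6% were called without siPRR11 library 1 and 2, against 16.7% with all libraries. Without either siNC library, the share of all genes called was larger than with all libraries. In these fits the lone library of a group is assumed to vary like the libraries of the other group. Whether a call was kept or lost there depends on that assumption.

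**Figure D3:**
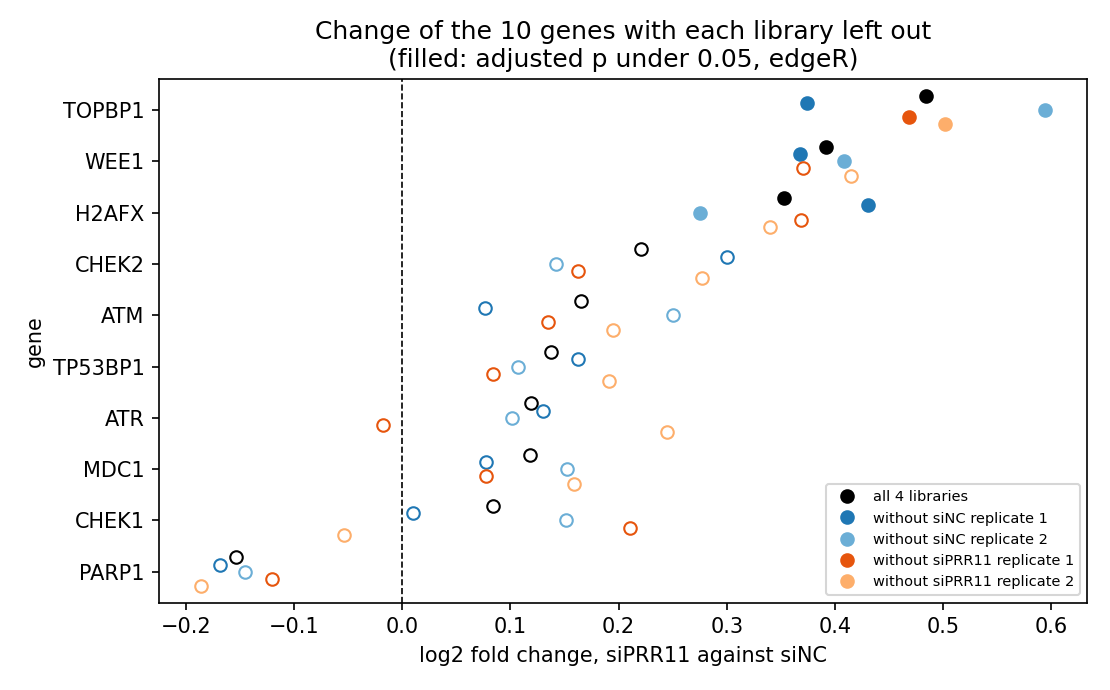
Log2 fold changes of the 10 genes with all 4 libraries and with each library left out, filled where the adjusted p-value from edgeR was under 0.05. The points of TOPBP1 lie between 0.37 and 0.59, while those of ATR and CHEK1 cross 0 when 1 siPRR11 library is left out.

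Reads of overlapping genes limit some of these values. The libraries were stranded, but the strand setting of the counting is not given in the sources used here. Exons of genes on the other strand cover 28.7% of the exonic bases of TP53BP1 (TUBGCP4), 16.4% of those of ATR, 8.69% of those of MDC1 (MDC1-AS1), 7.27% of those of CHEK2 (HSCB) and 1.15% of those of ATM. STT3A, on the same strand, covers 1.22% of CHEK1. No exon of another gene in the table overlaps PARP1, H2AFX, WEE1 or TOPBP1, and these include the 3 genes with a call. GENCODE release 44 lists 7 numbered pseudogenes of CHEK2, 2 of PARP1 and 2 of WEE1, whose reads may be shared with the parent gene. HSCB, which encodes a mitochondrial iron-sulfur cochaperone and was chosen after its values were seen, starts 391 bases from the start of CHEK2 on the other strand. It fell to 2.10 and 1.80 CPM from 3.76 and 2.97 CPM (edgeR adjusted p = 0.0129), while CHEK2 had a positive log2 fold change. NPAT, chosen in the same way, starts 158 bases from the start of ATM and had a log2 fold change of 0.22 (edgeR adjusted p = 0.22), not past the threshold, as for ATM.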

How the data were processed

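RNA-seq libraries of ACHN cells (siNC and siPRR11, 2 each, grouped by their labels) were analysed. The paper's methods name stranded libraries, STAR alignment to GRCh38 and featureCounts, and the submitters' processing notes name Trimmomatic 0.36 and Subread 1.5.1. The annotation release and the strand setting are not given in the sources used here. The authors deposited raw counts per gene, without normalization, and RPKM values, which equal the count divided by exonic length and column total to within 3.08e-06% over 15916 genes.

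Counts were tested with edgeR 4.0.16 (R 4.3.3): TMM, filterByExpr (21630 of 36359 genes), quasi-likelihood test, condition as the only term, Benjamini-Hochberg adjustment over all genes tested, threshold 0.05. Standard errors are the log2 fold change divided by the square root of F. Libraries of a group differed by more than sampling noise (chi-square per degree of freedom 20.9 and 14.3), and counting error alone is 3.71% (SD) for the lowest count of a member, 726. Alternatives were RLE, DESeq2 1.42.0, other filters, the replicate number as a block, limma 3.58.1 (trend) on log2(RPKM + 1) or log2(RPKM + 0.1), and each library left out. The added 1 shrinks the log2 fold changes of low genes, as for WEE1 (0.27, against 0.39 in the test on counts). With 0.1 added, WEE1 was at 0.41. RPKM carries no TMM scaling. The gene test was also run on simulated counts that gave every gene the same spread between libraries. That run does not show that its p-values hold for these libraries.

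The 10 genes and the lists were chosen with earlier results of these data known. Genes named from the lists are up to 2 largest rises and 2 largest falls among called genes whose mean log2 CPM was 1 or more, and the called cycle marker of each phase that moved most. Others named with values (RAD50, MRE11A, TIPIN, ATRIP, PAXIP1, PKMYT1, H2AFJ, HSCB and NPAT) were chosen after their values were seen. A result for 1 gene under this rule is not reported here.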

Additional observations from a re-analysis of the deposited data

How the results depend on the processing

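Of 120 values of the 10 genes under the alternatives, 107 kept their direction and side of the threshold, 9 were no longer past it, 2 passed it and 2 turned. All 9 losses fell on TOPBP1, WEE1 and H2AFX, most of them on WEE1, while the 7 genes without a call had none to lose. The share kept over all 10 genes is thus not the stability of the calls. Without siPRR11 replicate 2, CHEK1 turned to a log2 fold change of -0.054 and ATR was at 0.24, while without siPRR11 replicate 1, ATR turned to -0.018 and CHEK1 was at 0.21 (leaving out 1 library gave -0.054 to 0.21 for CHEK1 and -0.018 to 0.24 for ATR). Leaving out 1 library gave 1 to 3 genes called of the 10, 1 to 3 of them higher. RLE, DESeq2 and both count filters called the same 3 genes (TOPBP1, WEE1 and H2AFX), and limma on filtered RPKM called 2 of them, without WEE1. Limma on log2(RPKM + 1) without a filter called 0 of the 10 and 0 of all genes, 0 of the genes of each list, and gave PRR11 a log2 fold change of -1.22 with an adjusted p of 0.0591. At an unadjusted p-value under 0.05 it counted 5 of the 10 higher and 0 lower, without a share over all genes beside them. The cause was not tested.

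The replicate numbers are shared by the groups, but the labels do not say that they pair the libraries. Deviations of same-numbered libraries from their group means correlated at 0.16 over genes. With the number as a replicate block, 5 of the 10 were called, 4 higher and 1 lower, as CHEK2 (adjusted p = 0.0359) and PARP1 (adjusted p = 0.0474 from edgeR) passed the threshold, and 6988 of all genes were called in place of 3622. The block also gave 5 calls in the ATM and DNA-PK arm, 6 in the ATR and CHK1 arm, 7 among break chromatin mediators and 6 among poly-ADP-ribose genes.

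Limma on log2(RPKM + 1) and on log2(RPKM + 0.1) each gave 1 call in the ATM and DNA-PK arm and 2 among break chromatin mediators, and 1775 and 1878 calls over all genes, of which 1091 and 1152 were higher, against 1645 of 3622 in the test on counts. RPKM carries no TMM scaling, and the median log2 fold change over all genes was 0.021 and 0.045 in these runs, against 0.0022 in the test on counts. The part of this shift in the higher calls was not tested. Leaving out a library gave 1 to 2 calls in the ATM and DNA-PK arm, 1 to 3 in the ATR and CHK1 arm, 2 to 5 among break chromatin mediators, 3 to 5 among G1/S markers and 4 to 10 among G2/M markers. A description of SQ and TQ residues in the proteins was planned, without a test, and not made, since no protein sequences were used here. The share of all genes called was smaller with either siPRR11 library left out and larger with either siNC library left out. CHEK2 was past the threshold in no alternative run but the block, and ATM in none, the block included.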
